A study of Mus musculus with 10 samples.

Results

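Transport between the nucleus and the cytoplasm was examined through the messenger RNA of 44 protein-coding mouse genes, out of 55573 genes in the count table. They were chosen by name, as symbols that begin with Nup and a digit, Kpna, Kpnb, Ipo and a digit, Xpo or Tnpo (a rule that uses no measured value, although the gene set was proposed with earlier results of these data known). The 44 genes comprise 21 nucleoporin genes and 23 transport receptor genes, namely 6 importin alphas, 1 importin beta, 7 other importins, 6 exportins and 3 transportins. RNA sequencing had been done on 10 libraries of B-cell progenitors from mouse bone marrow, 5 labelled GFP high, which the submitters call quiescent, and 5 labelled GFP low, which they call proliferating. All 10 carried the genotype PAX5-ELN H2B-GFP, had doxycycline as the treatment and were taken at 35 days. PAX5-ELN is a leukaemia-associated fusion of the B-lineage factor PAX5 with elastin, and H2B-GFP is a histone H2B joined to green fluorescent protein, which is carried on chromatin. No library without the fusion or without doxycycline is analysed here, and mouse age, sex, strain and the promoters that drive the alleles are not given in the sources used here.

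Nuclear pore complexes are built from many copies of nucleoporins, which form outer rings (the Y complex), an inner ring, a central channel rich in phenylalanine-glycine repeats, a nuclear basket, cytoplasmic filaments and a ring in the membrane. Importins and transportins carry cargo inward and exportins carry it outward, and the small GTPase Ran sets the direction, because its GTP form in the nucleus releases import cargo and binds export complexes. Importin alphas are adaptors that recognise the classical nuclear localisation signal and travel with importin beta. In dividing cells the pore is taken apart at mitosis and rebuilt, and further pores are inserted as nuclei grow between divisions.

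Total counts ranged from 11347097 to 13838769 in the GFP high libraries and from 10640894 to 14858520 in the GFP low libraries, and a floor of 3 counts stands at 0.202 to 0.282 CPM, the counts scaled to library size by the TMM method. Libraries with the same number deviated together across the groups, so same-numbered libraries were also compared as pairs. Those numbered 4 and 5 deviated almost as closely with a library of another number, so their pairing is less certain. The libraries numbered 4 and 5 stood apart from those numbered 1 to 3 in both groups for many genes, and the libraries numbered 3 held 7 and 0 counts of Y-linked coding genes against 297 to 2649 in the others. The labels do not say what the numbers mark. They also do not say whether the libraries of a group came from separate mice, so the spread behind each p-value is that between samples and may be technical. In these bulk samples fewer cells of a type and less RNA per cell cannot be told apart.

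None of the pore and receptor genes was higher in GFP high cells, and 18 of the 42 tested were lower (edgeR quasi-likelihood test, adjusted p under 0.05). These 18, or 42.9%, compare with 15.4% of all 12772 genes tested that were lower and 12.0% that were higher. The median log2 fold change of the 42 genes, GFP high over GFP low, was -0.25, against 0.03 over all genes tested, and 5 of the 42 had a positive value. At an unadjusted p under 0.05 the counts were 0 higher and 21 lower, against 18.8% higher and 20.3% lower over all genes. DESeq2 called 0 higher and 20 lower, against 14.9% and 16.5%. With the replicate block, 0 were higher and 23 lower, against 20.7% higher and 21.0% lower over all genes; the 5 added were Kpna1, Kpna3, Nup133, Nup155 and Nup160. In 12 of the 42 genes, or 28.6%, every GFP high library lay below every GFP low library, and in none was the order the opposite, while the 2 groups did not overlap in either direction in 20.5% of all genes. Of the 18 genes called lower, 10 were called lower in every one of 19 other settings, namely Xpo1, Ipo5, Ipo7, Kpna2, Nup37, Nup54, Nup85, Nup93, Nup107 and Nup205. The 2 genes not tested were Kpna7, with 6 counts in all libraries together, and Nup62cl, which was listed at 0 in every library.

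**Figure D1:**
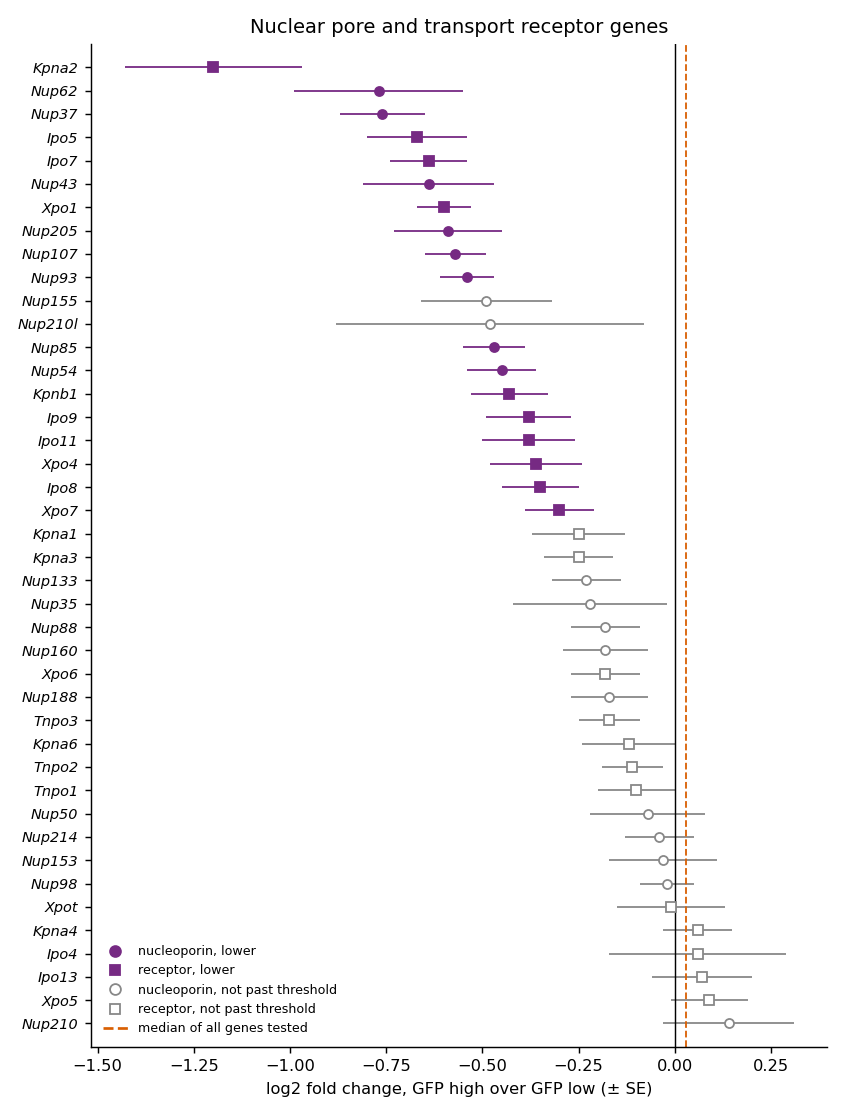
Log2 fold change of each of the 42 tested genes, GFP high over GFP low, with its standard error; circles are nucleoporins, squares are receptors, filled purple symbols were lower in GFP high and open grey symbols did not pass the threshold. The values run from -1.20 for Kpna2 to 0.14 for Nup210, and most lie to the left of the dashed line at the median of all genes, 0.03.

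Together the 44 genes took 0.488% ± 0.0195 (SD, n = 5) of the counts of GFP high libraries, with a range of 0.468% to 0.52%. In GFP low libraries they took 0.575% ± 0.0229 (SD, n = 5), with a range of 0.555% to 0.605%. No GFP high library reached the lowest GFP low library, and no test was made of this sum over chosen genes. Levels between genes were compared per kilobase of exon, as the mean over the 10 libraries. Here and below, exon length is that of all annotated exons of a gene merged. It can exceed the length of the transcript expressed, so some levels may be too low. By that scale the highest level was that of Nup62 at 79.8 CPM per kb, followed by Nup210 at 62.5, Xpo1 at 53.2, Kpna3 at 47.9 and Kpna2 at 46.3 CPM per kb. The lowest tested levels were those of Nup210l at 0.396, Ipo4 at 3.7 and Nup35 at 4.03 CPM per kb. Genes called lower were found from 4.21 CPM per kb (Ipo8) up to Nup62, and Nup210, the gene with the second-highest level, was not called.

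**Figure D2:**
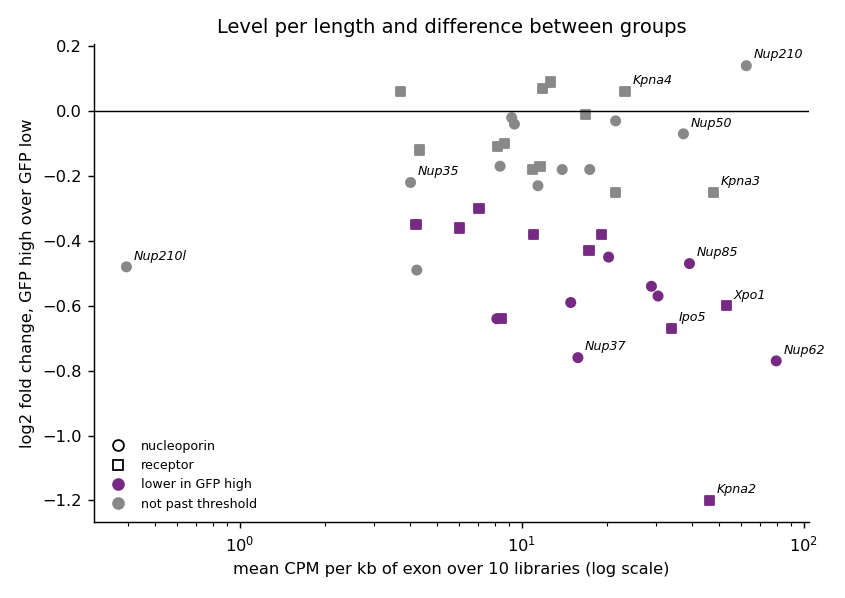
Mean level of each of the 42 tested genes per kilobase of exon over the 10 libraries (horizontal, log scale) against its log2 fold change, GFP high over GFP low (vertical); circles are nucleoporins, squares receptors, purple symbols were lower in GFP high and grey symbols did not pass the threshold. Among the 5 genes with the highest levels, Nup62 (-0.77), Xpo1 (-0.60) and Kpna2 (-1.20) were lower, while Nup210 (0.14) and Kpna3 (-0.25) were not called.

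The bases just upstream of the transcription start are shown for the receptor with the largest difference (Kpna2), the lowest p (Xpo1), the nucleoporin with the lowest fold change among those whose groups did not overlap (Nup37) and a nucleoporin with almost no difference (Nup98). These are the 250 bases before the RefSeq start, the most upstream where several are listed, on the gene's own strand in GRCm38.p6. Capitals mark the CCAAT box (CCAAT) and the CHR element (TTTGAA), letters found in promoters of many cell cycle genes, read on both strands. The windows lie at chr11:106999526-106999775 (minus strand) for Kpna2, chr10:88146742-88146991 (plus strand) for Nup37, chr11:23255791-23256040 (plus strand) for Xpo1 and chr7:102210167-102210416 (minus strand) for Nup98.
Kpna2: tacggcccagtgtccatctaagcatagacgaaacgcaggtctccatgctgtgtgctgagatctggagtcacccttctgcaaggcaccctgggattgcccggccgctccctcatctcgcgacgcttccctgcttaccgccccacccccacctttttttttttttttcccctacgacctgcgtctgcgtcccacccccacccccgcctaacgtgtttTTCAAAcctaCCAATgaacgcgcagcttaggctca
Nup37: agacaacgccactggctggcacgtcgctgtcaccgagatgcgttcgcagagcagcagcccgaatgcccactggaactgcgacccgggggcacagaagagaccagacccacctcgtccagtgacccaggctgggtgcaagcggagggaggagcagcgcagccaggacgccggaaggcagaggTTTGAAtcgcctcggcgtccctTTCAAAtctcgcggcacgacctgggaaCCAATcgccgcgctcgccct
Xpo1: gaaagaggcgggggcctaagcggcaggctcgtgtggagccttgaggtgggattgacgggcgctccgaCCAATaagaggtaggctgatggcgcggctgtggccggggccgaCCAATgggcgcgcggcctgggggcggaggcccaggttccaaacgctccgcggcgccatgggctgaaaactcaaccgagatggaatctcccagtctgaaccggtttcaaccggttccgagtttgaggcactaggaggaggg
Nup98: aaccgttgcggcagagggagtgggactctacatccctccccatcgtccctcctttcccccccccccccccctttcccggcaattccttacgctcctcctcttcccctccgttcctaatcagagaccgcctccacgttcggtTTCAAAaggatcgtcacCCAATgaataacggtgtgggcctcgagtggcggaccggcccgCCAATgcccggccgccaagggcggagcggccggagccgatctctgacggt

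The Kpna2 window held the CHR letters with their first base at -35 from the start and a CCAAT at -25. The Nup37 window held the CHR letters at -69 and -47 and a CCAAT at -20, the Xpo1 window held CCAAT at -183 and -140 and no CHR letters, and the Nup98 window held the CHR letters at -109 and CCAAT at -92 and -50. Both motifs stood in the promoter of Kpna2, the gene with the largest difference, and in the printed window of Nup98, with a log2 fold change near 0. RefSeq lists another, more downstream start for Nup98, whose window holds neither motif, and another for Nup37, whose window holds both. Of the 44 genes, 35 had a promoter in the RefSeq table, which runs from 250 bases before to 50 bases after the start. CCAAT was present in 20 of these 35 and in 41.1% of 27025 genes with a promoter in the table. Those 27025 genes, the comparison for each motif, were not limited to coding genes as the 35 are. CCAAT was in 9 of 14 genes called lower and 9 of 19 not called. The CHR letters were in 7 of 35 and in 20.2% of all genes, with 3 of 14 called lower and 3 of 19 not called. E2F letters (TTTCCCGC or TTTGGCGC) were in 1 of 35 and in 1.8% of all genes, the NRF1 core CGCATGCG in 4 of 35 and in 2.07%, and the ETS core CCGGAAGT in 4 of 35 and in 4.31%. All motifs were read on both strands, and none of them contains another. A match is only a match of letters.

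Among the importin alphas, 1 of 5 tested was lower, and 3 with the replicate block, against 15.4% and 21.0% of all genes. Kpna2, the adaptor known for its high level in dividing cells, stood at 72.6, 76.7, 49.0, 95.1 and 110 CPM in GFP high libraries 1 to 5. In GFP low libraries 1 to 5 it stood at 155, 156, 128, 228 and 260 CPM. Every GFP high value was below every GFP low value, and in both groups libraries 4 and 5 were the highest. The means were 80.6 ± 23.1 and 186 ± 55.8 CPM (SD, n = 5 each). Kpna2 was 2.3-fold lower (log2 fold change -1.20 ± 0.23 SE, edgeR adjusted p = 0.00212), and it was lower by a like amount in libraries 1 to 3 alone (-1.12) and in 4 and 5 alone (-1.27). Kpna3 averaged 188 ± 19.2 and 223 ± 21.6 CPM (-0.25 ± 0.09 SE, edgeR adjusted p = 0.0705). Kpna1 averaged 166 ± 27.7 and 198 ± 22.4 CPM (-0.25 ± 0.12 SE, edgeR adjusted p = 0.136). With the replicate block Kpna3 and Kpna1 were lower, with adjusted p = 0.00711 and 0.0112. Kpna3 was also called without GFP high library 4 (-0.30, edgeR adjusted p = 0.0313) and by DESeq2 (adjusted p = 0.0492). Kpna4 averaged 211 ± 23.7 and 203 ± 17.5 CPM (0.06 ± 0.09 SE) and Kpna6 28.0 ± 3.03 and 30.4 ± 4.04 CPM (-0.12 ± 0.12 SE), and neither was called in any setting.

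The make-up of the importin alpha pool differed between the groups. Per kilobase of exon, Kpna2 gave 23.3% ± 5.75 of the importin alpha reads in GFP high libraries and 38.1% ± 7.77 in GFP low libraries (SD, n = 5). Kpna4 gave 20% ± 3.41 and 13.8% ± 2.48, and Kpna3 gave 36.7% ± 1.87 and 31.2% ± 3.17. Shares of a pool are tied together, so a lower Kpna2 share leaves larger shares to the other genes. By CPM neither gene was higher in GFP high: Kpna4 was not called (0.06), and Kpna3 (-0.25) was lower with the replicate block. The ratio of Kpna2 counts to the summed counts of the other importin alphas was 0.123, 0.123, 0.0794, 0.157 and 0.207 in GFP high libraries 1 to 5. It was 0.226, 0.234, 0.189, 0.35 and 0.438 in GFP low libraries 1 to 5. GFP high library 5 lay above the lowest GFP low library, so the groups overlapped, but the ratio was lower in GFP high in all 5 same-numbered pairs. The mean ratio was 2.08-fold lower, a log2 difference of -1.06 (2-sided exact permutation test p = 0.0159, adjusted p = 0.0238 over 3 ratios). The smallest p that 5 against 5 libraries allow is 0.00794. That test does not use the pairs. An exact sign-flip test of the 5 paired differences gave p = 0.0625, the lowest that 5 pairs allow.

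**Figure D3:**
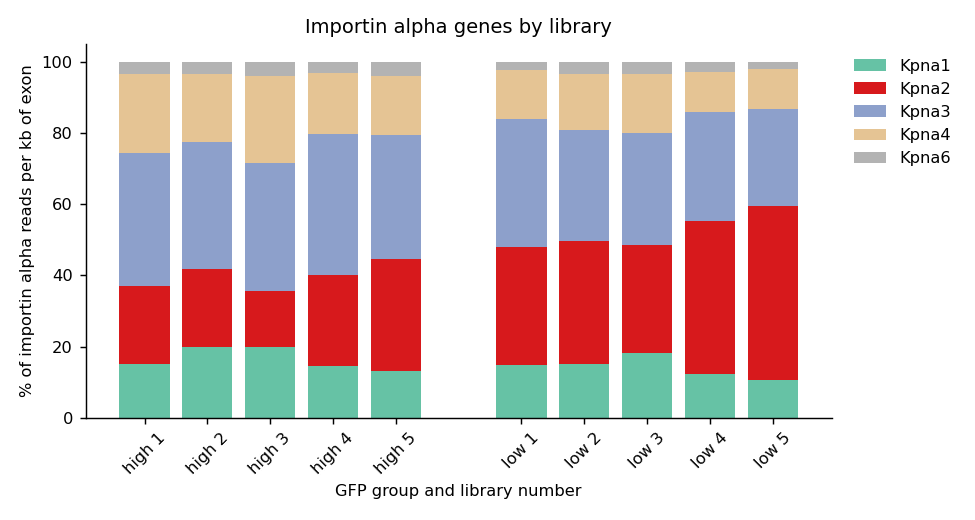
Share of each importin alpha gene in the importin alpha reads per kilobase of exon, in percent, for the 10 libraries; Kpna7, with 6 counts in all, is left out of the bars. The Kpna2 share runs from 15.7% to 31.4% in GFP high libraries and from 30.3% to 49.0% in GFP low libraries.

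Cse1l, the export receptor that returns importin alphas to the cytoplasm, lies outside the naming rule and was also lower, at 248 ± 15.1 against 348 ± 29.3 CPM (-0.49 ± 0.08 SE, edgeR adjusted p = 0.000799). Its fold was smaller than that of Kpna2. The ratio of Cse1l to Kpna2 counts was 3.38, 3.14, 4.76, 2.87 and 2.27 in GFP high libraries 1 to 5, against 2.23, 2.01, 2.54, 1.61 and 1.48 for GFP low. It was higher in GFP high in all 5 pairs, by 1.64-fold on average (log2 difference 0.72, 2-sided exact permutation test p = 0.0159, adjusted p = 0.0238). An exact sign-flip test of the 5 paired differences gave p = 0.0625, the lowest that 5 pairs allow. This ratio and that of Kpna2 to the other importin alphas both hold Kpna2, so their p-values are not separate results. Kpna2 was among the genes chosen with earlier results of these data known.

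Kpnb1, importin beta, the carrier that importin alphas bind, stood at 117, 81.3, 101, 93.9 and 91.2 CPM in GFP high libraries 1 to 5, against 130, 118, 133, 132 and 140 CPM in GFP low libraries 1 to 5. The highest GFP high value, in library 1, lay just under the lowest GFP low value. Kpnb1 was 1.35-fold lower (-0.43 ± 0.10 SE, edgeR adjusted p = 0.00617). The call was lost in libraries 1 to 3 alone (-0.33, edgeR adjusted p = 0.0955).

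Of the 7 other importins, which bind cargo directly, 5 were lower, against 15.4% of all genes, with a median log2 fold change of -0.38. Ipo5, which imports ribosomal proteins and core histones, stood at 204, 135, 125, 164 and 155 CPM in GFP high libraries, against 287, 216, 229, 255 and 261 CPM in GFP low libraries, in the order 1 to 5. Library 1 was the highest in both groups, and the groups did not overlap. Ipo5 was 1.59-fold lower (-0.67 ± 0.13 SE, edgeR adjusted p = 0.0023). Ipo7, another carrier of ribosomal proteins and of linker histone, stood at 61.5, 79.6, 69.8, 80.9 and 77.1 CPM in GFP high libraries, against 107, 114, 137, 116 and 101 CPM in GFP low libraries. Again no values overlapped, and Ipo7 was 1.56-fold lower (-0.64 ± 0.10 SE, edgeR adjusted p = 0.000836).

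Ipo9, an importer of core histones, averaged 137 ± 23.3 and 178 ± 9.06 CPM (-0.38 ± 0.11 SE, edgeR adjusted p = 0.0189). GFP high library 4, at 177 CPM, reached into the GFP low range of 168 to 187 CPM. Ipo11 averaged 75.1 ± 9.42 and 97.5 ± 14.7 CPM (-0.38 ± 0.12 SE, edgeR adjusted p = 0.0327), and Ipo8 averaged 58.5 ± 7.68 and 74.5 ± 5.22 CPM (-0.35 ± 0.10 SE, edgeR adjusted p = 0.022). These 3 calls were near the threshold and were lost when certain single libraries were left out, with fold changes that stayed negative. With the replicate block all 3 were lower (edgeR adjusted p = 0.00106 for Ipo9, 0.00146 for Ipo11 and 0.00664 for Ipo8). Ipo9 lost its call without GFP high library 1 or 2 (edgeR adjusted p = 0.0582 and 0.0556). Ipo11 lost it without GFP high library 1, 2 or 3 or GFP low library 4 or 5 (edgeR adjusted p from 0.0668 to 0.0932). Ipo8 lost it without GFP high library 1 or 3 or GFP low library 3 or 4 (edgeR adjusted p from 0.0523 to 0.0647). Ipo4 and Ipo13 were not called, with log2 fold changes of 0.06 ± 0.23 and 0.07 ± 0.13 SE. Ipo4 is also uncertain, since 55.32% of its exon bases lie in the annotated coding gene Gm49378 on the same strand, which was listed at 0.

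Among the 6 exportins, 3 were lower, against 15.4% of all genes. Xpo1, also named CRM1, the exporter of proteins with a leucine-rich signal and of ribosomal subunits, had the lowest p of all 42 genes. It stood at 310, 321, 290, 305 and 292 CPM in GFP high libraries 1 to 5, against 463, 517, 464, 412 and 446 CPM in GFP low libraries 1 to 5. The GFP high values lay close together, and the highest was well under the lowest GFP low value. Xpo1 was 1.52-fold lower (-0.60 ± 0.07 SE, edgeR adjusted p = 0.000122). The ratio of Xpo1 to Kpnb1 counts, main carrier out against main carrier in, ranged from 2.65 to 3.94 in GFP high and from 3.13 to 4.39 in GFP low libraries. It differed by -0.16 on the log2 scale and did not pass (2-sided exact permutation test p = 0.286, adjusted p = 0.286).

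Xpo7 and Xpo4 were lower by less. Xpo7 averaged 120 ± 13.4 and 148 ± 12.3 CPM without overlap of the groups (-0.30 ± 0.09 SE, edgeR adjusted p = 0.0339), and Xpo4 averaged 56.4 ± 3.43 and 72.4 ± 13.5 CPM (-0.36 ± 0.12 SE, edgeR adjusted p = 0.0365). Xpo7 lost its call without GFP high library 2, 3 or 5 or GFP low library 1, 4 or 5 (edgeR adjusted p from 0.0519 to 0.0855). Xpo4 lost it without GFP high library 2, 3, 4 or 5 or GFP low library 1, 2 or 3 (edgeR adjusted p from 0.0505 to 0.0812). Its log2 fold change went from -0.36 to -0.24 without GFP low library 1. The other 3 exportins were not called. Xpot, which exports transfer RNA, stood at 79.2, 103, 83.7, 116 and 122 CPM in the GFP high libraries, against 92.6, 86.2, 97.3, 113 and 119 CPM in GFP low libraries (-0.01 ± 0.14 SE, edgeR adjusted p = 0.952). Xpo5, which exports microRNA precursors, averaged 89.1 ± 7.59 and 83.7 ± 11.6 CPM (0.09 ± 0.10 SE), and Xpo6, the exporter of actin, 173 ± 9.33 and 196 ± 20.9 CPM (-0.18 ± 0.09 SE).

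None of the 3 transportins passed the edgeR test, also at an unadjusted p under 0.05, and DESeq2 called none. Tnpo1, which imports RNA-binding proteins such as hnRNP A1, stood at 77.3, 94.4, 88.7, 110 and 98.4 CPM in the GFP high libraries, against 98.0, 87.2, 101, 104 and 113 CPM in GFP low libraries (-0.10 ± 0.10 SE, edgeR adjusted p = 0.492). The groups overlapped, and GFP high was the higher in 2 of the 5 pairs. Tnpo2 gave -0.11 ± 0.08 SE. Tnpo3, the importer of SR splicing factors, gave -0.17 ± 0.08 SE.

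**Figure D4:**
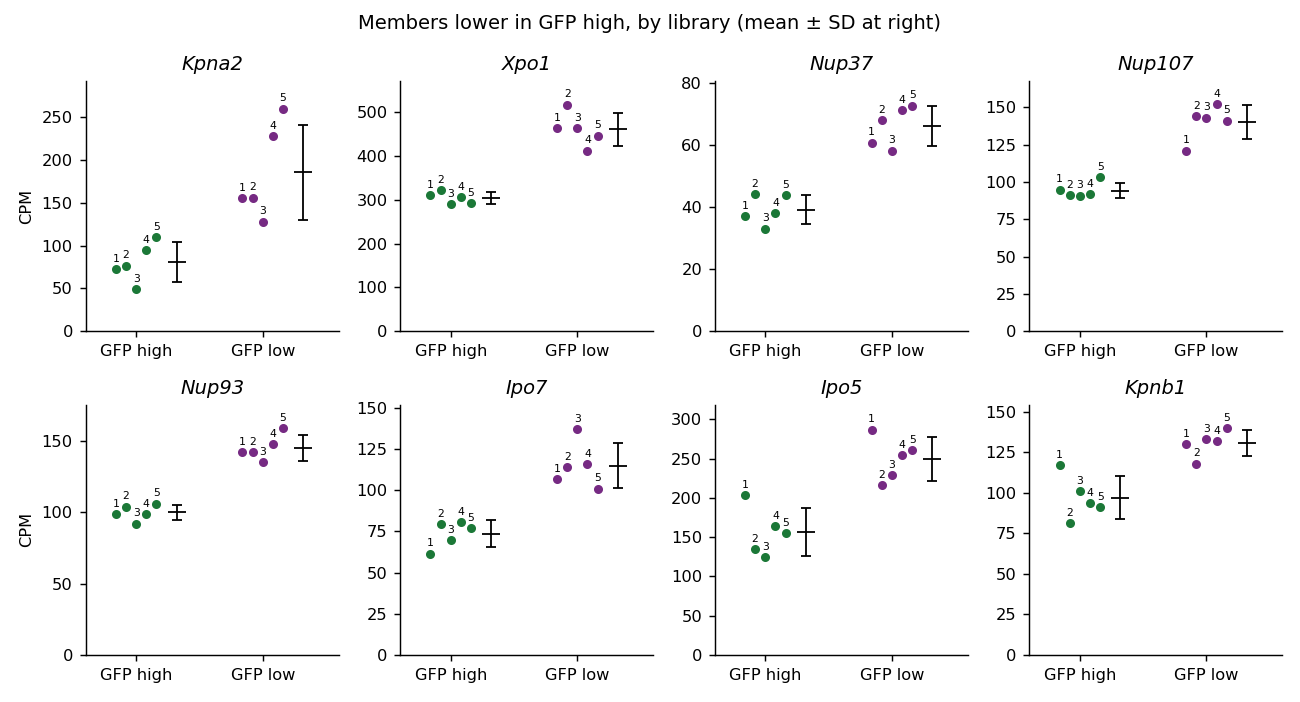
CPM in each library for 8 genes that were lower in GFP high cells, with the library number above each point and the group mean ± SD as a bar at the right of each group. In every panel all 5 GFP high libraries lie below all 5 GFP low libraries, and Kpna2 has the largest fold between the group means, 2.3.

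Of 20 nucleoporins tested, 8 were lower, and 11 with the replicate block, with a median log2 fold change of -0.34. Over all genes 15.4% were lower, and 21.0% with the block. The Y complex, the scaffold of the outer rings, had 4 of 7 members lower, and 6 with the block. Nup37 stood at 37.0, 44.1, 33.1, 38.0 and 43.8 CPM in GFP high libraries, against 60.8, 68.1, 58.2, 71.4 and 72.7 CPM in GFP low libraries 1 to 5. Nup107 stood at 94.8, 90.9, 90.8, 91.6 and 103 CPM in the GFP high libraries, against 121, 144, 143, 152 and 141 CPM in GFP low libraries. Nup85 stood at 115, 116, 114, 104 and 107 CPM in the GFP high libraries, against 139, 171, 161, 145 and 156 CPM in GFP low libraries. In all 3 genes the groups were fully apart. The folds were 1.69 for Nup37 (-0.76 ± 0.11 SE, edgeR adjusted p = 0.00029), 1.49 for Nup107 (-0.57 ± 0.08 SE, edgeR adjusted p = 0.0003) and 1.39 for Nup85 (-0.47 ± 0.08 SE, edgeR adjusted p = 0.000915).

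Nup43, a further Y complex subunit, averaged 16.3 ± 2.64 and 25.5 ± 5.47 CPM (-0.64 ± 0.17 SE, edgeR adjusted p = 0.0148), and it was lower in GFP high in all 5 pairs although the groups overlapped. Nup43 was not called in libraries 4 and 5 alone (-0.60, edgeR adjusted p = 0.0817). Nup133 averaged 73.8 ± 3.88 and 86.4 ± 10.5 CPM (-0.23 ± 0.09 SE, edgeR adjusted p = 0.0877) and Nup160 114 ± 16.5 and 129 ± 14.9 CPM (-0.18 ± 0.11 SE, edgeR adjusted p = 0.255). Both were lower with the replicate block (adjusted p = 0.0256 and 0.0279), and Nup133 also without GFP low library 1 (-0.28, edgeR adjusted p = 0.0414) and in libraries 4 and 5 alone (-0.36, edgeR adjusted p = 0.0362). Nup98 encodes a precursor that is cut into a repeat nucleoporin of the channel and Nup96 of the Y complex. It stood at 112, 119, 123, 111 and 111 CPM in the GFP high libraries, against 107, 127, 116, 116 and 119 CPM in GFP low libraries (-0.02 ± 0.07 SE, edgeR adjusted p = 0.857). Its libraries interleaved, unlike those of Nup107, its partner in the same complex. The sign of its fold change differed between settings.

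In the inner ring, which lines the channel, 2 of 5 genes were lower, and 3 with the block, against 15.4% and 21.0% of all genes. Nup93, which anchors the channel nucleoporins, stood at 98.8, 104, 92.0, 98.7 and 106 CPM in the GFP high libraries, against 142, 142, 135, 148 and 159 CPM in GFP low libraries. The groups were far apart for their spread (-0.54 ± 0.07 SE, edgeR adjusted p = 0.000253). Nup205, a large scaffold protein, averaged 111 ± 18 and 167 ± 28.3 CPM without overlap (-0.59 ± 0.14 SE, edgeR adjusted p = 0.00734). Its close relative Nup188 averaged 49.1 ± 6.36 and 55.4 ± 3.59 CPM (-0.17 ± 0.10 SE, edgeR adjusted p = 0.228). Nup155 averaged 42.2 ± 9.11 and 59.1 ± 12.6 CPM (-0.49 ± 0.17 SE, edgeR adjusted p = 0.0519). It was lower with the replicate block (adjusted p = 0.000342), and also without GFP high library 4, GFP low library 1 or GFP low library 3 (edgeR adjusted p = 0.035, 0.039 and 0.0423). DESeq2 (adjusted p = 0.0297) and libraries 4 and 5 alone (edgeR adjusted p = 0.0083) called Nup155 as well. Nup35 averaged 12.5 ± 3.44 and 14.6 ± 2.18 CPM (-0.22 ± 0.20 SE, edgeR adjusted p = 0.431).

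In the central channel, Nup54 and Nup62, which form the repeat-bearing core together with Nup58, were both lower. Nup62 stood at 177, 225, 196, 134 and 108 CPM in GFP high libraries 1 to 5, against 264, 373, 370, 212 and 217 CPM in GFP low libraries 1 to 5. Libraries 4 and 5 were the lowest in both groups, so the groups overlapped, but GFP high was the lower in all 5 pairs. Nup62 was 1.71-fold lower (-0.77 ± 0.22 SE, edgeR adjusted p = 0.0187), with adjusted p = 3.25e-06 under the replicate block. Its call was lost without GFP high library 4, GFP low library 2 or GFP low library 3 (edgeR adjusted p = 0.0531, 0.0597 and 0.0584). Nup54 stood at 58.9, 59.3, 58.7, 57.1 and 51.6 CPM in the GFP high libraries, against 76.2, 73.9, 94.6, 73.3 and 73.3 CPM in GFP low libraries (-0.45 ± 0.09 SE, edgeR adjusted p = 0.00309). Its groups did not overlap, and GFP low library 3 stood above the other GFP low libraries.

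The nuclear basket, the cytoplasmic face and the membrane ring had no member that was lower or higher, also at an unadjusted p under 0.05 and with DESeq2. Nup153, which joins the basket to the pore, stood at 149, 175, 180, 106 and 137 CPM in the GFP high libraries, against 149, 178, 166, 136 and 135 CPM in GFP low libraries (-0.03 ± 0.14 SE, edgeR adjusted p = 0.879). Nup50, its mobile partner, averaged 178 ± 36.3 and 187 ± 30.2 CPM (-0.07 ± 0.15 SE). In both genes libraries 4 and 5 were the lowest of their group. On the cytoplasmic face, Nup214 averaged 89.5 ± 9.82 and 92.3 ± 5.14 CPM (-0.04 ± 0.09 SE), and Nup88 133 ± 6.06 and 151 ± 16.5 CPM (-0.18 ± 0.09 SE, edgeR adjusted p = 0.146). Nup210, the membrane glycoprotein gp210 and the nucleoporin gene with the most counts, stood at 577, 583, 580, 901 and 790 CPM in GFP high libraries, against 569, 506, 472, 785 and 781 CPM in GFP low libraries. It was the higher in GFP high in all 5 pairs, but by less than the difference between libraries 1 to 3 and 4 and 5 (0.14 ± 0.17 SE, edgeR adjusted p = 0.593; adjusted p = 0.0542 with the replicate block). Its relative Nup210l, known from testis, averaged 1.89 ± 0.454 and 2.64 ± 1.38 CPM (-0.48 ± 0.40 SE). The direction of Nup210l was not stable, since its log2 fold change ran from -0.94 to 0.66 over the other settings.

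**Figure D5:**
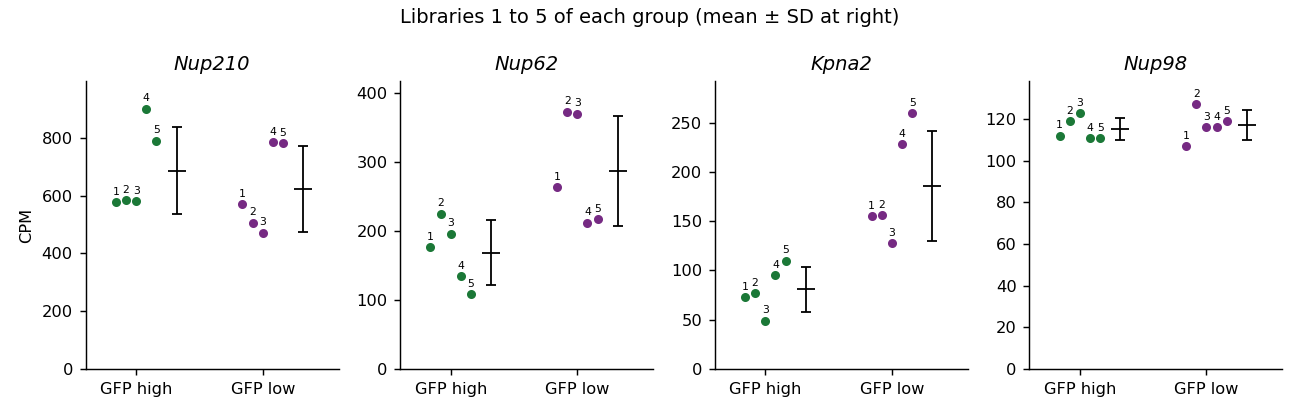
CPM in each library for Nup210, Nup62, Kpna2 and Nup98, with the library number above each point and the group mean ± SD at the right. Libraries 4 and 5 are the highest in both groups for Nup210 and Kpna2 and the lowest in both for Nup62, while Nup98 lies between 107 and 127 CPM throughout.

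The split between libraries 4 and 5 and libraries 1 to 3 ran through 13 of the 42 genes, against 23.2% of all genes tested. Libraries 4 and 5 were both above all of 1 to 3, in each group, for 8 genes (Ipo11, Kpna2, Nup155, Nup160, Nup210, Tnpo1, Xpo5 and Xpot). They were both below for 5 genes (Kpna4, Nup50, Nup54, Nup62 and Nup153). Kpna2 and Nup62, both lower in GFP high cells, moved in opposite directions between these sets of libraries. Within the sets, 14 of the 42 genes were lower and 0 higher in libraries 1 to 3 alone, against 12.5% lower and 10.8% higher over all genes (edgeR). In libraries 4 and 5 alone 15 were lower and 0 higher, against 11.1% and 10.3%. With both libraries numbered 3 left out, 12 were lower and 0 higher, against 10.7% and 7.23%; the calls lost were those of Xpo4, Xpo7, Ipo8, Ipo9, Ipo11 and Nup62.

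The pore proteins whose symbols fall outside the naming rule had 4 of 12 genes lower and none higher, against 15.4% and 12.0% of all genes. Ndc1, a membrane ring protein needed to insert pores, averaged 56.8 ± 1.83 and 104 ± 9.28 CPM (-0.87 ± 0.08 SE, edgeR adjusted p = 1.81e-05). Seh1l, of the Y complex, averaged 121 ± 11.2 and 173 ± 15 CPM (-0.52 ± 0.09 SE, edgeR adjusted p = 0.00117), and Aaas and Sec13 were the other two lower genes. Ranbp2 of the cytoplasmic filaments (-0.08 ± 0.11 SE) and Tpr of the basket (-0.09 ± 0.19 SE) were not called. With these genes added, the full lists had 6 of 10 genes lower for the Y complex, 2 of 5 for the inner ring, 2 of 3 tested for the central channel, 1 of 7 for the cytoplasmic face, 0 of 3 for the basket and 1 of 5 for the membrane ring. The difference between the lists was not tested.

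The Ran cycle and receptor partners are a list that holds Ran, its regulators and binding partners and also export cofactors such as Nxt1 and Nxt2. It had 8 of 12 tested genes lower and none higher by edgeR, and 9 lower and none higher by DESeq2, with a median log2 fold change of -0.49. Over all genes tested 15.4% were lower and 12.0% higher by edgeR, and 16.5% and 14.9% by DESeq2. Ran itself stood at 423, 352, 347, 382 and 430 CPM in GFP high libraries, against 655, 757, 800, 739 and 697 CPM in GFP low libraries, with a wide gap between the groups (-0.91 ± 0.09 SE, edgeR adjusted p = 1.87e-05). Rcc1, the exchange factor that loads Ran with GTP on chromatin, averaged 79.6 ± 5.96 and 138 ± 15.3 CPM (-0.79 ± 0.09 SE, edgeR adjusted p = 8.92e-05). Ranbp1, Rangap1, Nutf2, Nxt1 and Nxt2 were lower as well, as was Cse1l, given above. Among 23 genes of messenger RNA export, a list that also holds Nxt1 and Nxt2, 9 were lower, with Thoc6 at -0.74 and Eny2 at -0.62, and 1 was higher, Zc3h11a. Among 14 genes of the lamina and inner nuclear membrane, 5 were lower and 1 was higher, Lemd2, with 8 positive values and a median log2 fold change of 0.05. With the replicate block 6 were lower and 3 higher, against 21.0% and 20.7% of all genes. The added ones were Emd among the lower and Lemd3 and Syne2 among the higher. The B-type lamin genes Lmnb1 (-1.15 ± 0.10 SE) and Lmnb2 (-0.90 ± 0.09 SE) had the lowest p of that list.

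Genes of mitosis were also lower in GFP high cells: all 12 of the reference list, against 15.4% of all genes tested, with a median log2 fold change of -1.19. Mki67, the proliferation marker, averaged 178 ± 60.7 and 406 ± 136 CPM, and Top2a 466 ± 79.2 and 967 ± 100 CPM. Kpna2 at -1.20 was the only member of the 44 at or below the median of that list. All 10 markers of B-cell progenitors were detected, with a summed level of 12700 to 15100 CPM in GFP high libraries, against 9790 to 11300 CPM in GFP low, and 4 of them (Cd79a, Ebf1, Igll1 and Rag1) were higher. With the replicate block 9 of the 10 were higher, all but Dntt. Over all genes 12.0% were higher, and 20.7% with the block. The 6 T-cell markers summed to 1.31 to 3.89 and 1.94 to 9.88 CPM with Cd8a at 0 and Lck, the only one tested, lower in GFP high, and the 5 NK-cell markers to 2.88 to 5.02 and 1.74 to 4.45 CPM with Gzma at 0 and Klrd1 lower with the replicate block. The 7 neutrophil markers summed to 3.58 to 9.4 and 3.37 to 6.5 CPM, with S100a9 higher with the block, and the 4 platelet markers to 4.01 to 6.31 and 5.04 to 9.55 CPM. The 5 monocyte and macrophage markers summed to 77.8 to 121 and 44.3 to 86 CPM, with Csf1r higher in GFP high and all 3 tested markers (Csf1r, Lyz2 and Cd68) higher with the replicate block. The 7 erythroid markers summed to 16.6 to 46.6 and 7.84 to 22.3 CPM, with Hbb-bs higher, and Hbb-bt too with the block. The 5 plasma-cell markers summed to 622 to 1100 and 509 to 805 CPM, with Sdc1 and Xbp1 higher and Jchain lower, at 0.629 ± 0.408 against 56.7 ± 23.4 CPM, and Prdm1 and Irf4 also higher with the block. Most of that sum was Irf4, at a mean of 545 and 386 CPM, and Xbp1, at 239 and 180 CPM. The 5 stroma and endothelium markers summed to 245 to 291 and 134 to 172 CPM, with Pecam1 higher and Pdgfra at 0. Nearly all of that sum was Pecam1, which averaged 262 and 150 CPM. Cxcl12 averaged 4.02 and 1.02 CPM and was not called, Col1a1 0.734 and 0.0943 CPM, and Cdh5 0.23 and 0.326 CPM. The part of these markers and of the mitosis genes in the differences of the pore and receptor genes was not tested.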

How the data were processed

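Gene-level read counts, as deposited by the authors, were used without change; per the submitters' processing notes the build was mm10 and the tools included STAR, featureCounts and DESeq2, with no role or version. Per the labels, polyadenylated RNA was amplified with a kit for very small amounts of RNA. Strand and multi-mapping settings are not given in the sources used here, so overlapping genes are uncertain. Symbols came from GENCODE M21 on GRCm38, which matched 99.833% of identifiers, and unmatched identifiers held 4219 of 129994434 counts. The test was that of edgeR 4.0.16, run in R 4.3.3 (filterByExpr, TMM, quasi-likelihood, no covariate), adjusted by Benjamini-Hochberg over 12772 genes with a threshold of 0.05, and the fitting script was tested on simulated data. Alternatives were the replicate block, DESeq2 1.42.0, other scalings and filters, and libraries left out. Deviations from the group means correlated at 0.321 to 0.45 between same-numbered libraries. The numbers were therefore taken to pair them, from the data and not the labels. The highest correlation with another number was 0.077, 0.204 and 0.247 for GFP high libraries 1 to 3. For GFP high libraries 4 and 5 it was 0.392 and 0.418, close to the same-number values of 0.45 and 0.438. No libraries of a group agreed within sampling noise (lowest chi-square per gene 7.28). CPM is given as mean ± SD, and floors cover counting error only. The SE of a log2 fold change was derived from the edgeR test, as its absolute value divided by the square root of the F statistic. Ratios used counts plus 0.5 and exact permutation tests. Values in every library were given for the 10 members with the lowest p, the 3 with the highest mean CPM, the 3 with the highest p above a mean of 20 CPM, and 8 set members; from other lists the 2 genes with the lowest p and set genes were named, and remaining members were given by mean or fold change. Further list genes named without full values were picked once values had been seen. The members and lists were chosen with earlier results of these data known.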

Additional observations from a re-analysis of the deposited data

Results flagged for a closer look

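In 90 groups of 5 libraries (the 42 tested genes and 3 ratios, in each GFP group), 5 had a library far from the others by Dixon's criterion, and chance alone marks about 1 in 20 groups. For Xpo4, library 1 was the high value in both groups, at 62.4 CPM among the GFP high libraries and 96.0 CPM among the GFP low ones. Nup54 was low in GFP high library 5, at 51.6 CPM, and high in GFP low library 3, at 94.6 CPM. Nup88 was low in GFP high library 4, at 122 CPM.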

How the results depend on the processing

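The number of pore and receptor genes called lower was 18, and 0 were called higher in any setting. The lower count was 23 with the replicate block, 20 with DESeq2, 15 with total counts as the scaling, 15 with every gene of at least 1 count, and 14 to 18 when a library was left out. Total-count scaling moved the median of all genes from 0.03 to 0.08 and lost Xpo4, Xpo7 and Ipo11. Under the replicate block, sign flips of 5 pairs cannot go below an exact permutation p of 0.0625, which both the Kpna2 ratio (-1.06) and the Cse1l to Kpna2 ratio (0.72) reached. Leaving out single libraries gave log2 differences of -1.22 to -0.88 for the Kpna2 ratio, -0.24 to -0.08 for Xpo1 over Kpnb1 and 0.57 to 0.84 for Cse1l over Kpna2. The sign of small differences, and that of the larger one of Nup210l (-0.48 with all libraries), turned in some settings. None of these was called, and the cause was not tested. Total-count scaling gave 0.03 for Nup98, 0.02 for Nup153, 0.03 for Xpot and 0.01 for Nup214. A mean CPM of at least 5 gave 0.01 for Nup98 and 0.02 for Xpot, and every gene of at least 1 count gave 0.00 for Xpot. Libraries 1 to 3 alone gave 0.04 for Nup98, 0.06 for Nup153, 0.01 for Ranbp2 and -0.00 for Ipo13. Libraries 4 and 5 alone gave 0.02 for Xpot and 0.66 for Nup210l, and leaving out both libraries numbered 3 gave 0.03 for Xpot. Leaving out single libraries gave -0.05 to 0.01 for Nup98, -0.11 to 0.08 for Nup153, -0.08 to 0.08 for Xpot, -0.14 to 0.00 for Ranbp2, -0.20 to 0.01 for Tpr, -0.10 to 0.21 for Ipo4, -0.07 to 0.03 for Nup214 and -0.15 to 0.04 for Nup50. At these depths a gene under 0.202 to 0.282 CPM, by total counts, is not told from 0, which bears on Kpna7 and Nup62cl.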

Other observations

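Nup58, the partner of Nup54 and Nup62 in the central channel, is named Nupl1 in the annotation and had 8 counts in all libraries. The annotated coding gene Gm49336, which covers 48.75% of the exon bases of Nupl1 on the same strand (chromosome 14, 60205282 to 60251507, GRCm38), had 11863 counts. It averaged 80.1 ± 8.36 CPM (GFP high) and 102 ± 14.9 CPM (GFP low), was lower in GFP high in all 5 pairs (log2 fold change -0.35 ± 0.11 SE, edgeR adjusted p = 0.0327) and was chosen after its values were seen. Which of the overlapping genes the reads came from cannot be told from the counts. Rangrf, a Ran-binding factor, was listed at 0 in every library, and 90.7% of its exon bases are shared with Slc25a35 on the opposite strand, which had 1387 counts.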
